A study of Homo sapiens with 8 samples.

Results

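The BCL2 family decides whether mitochondria release cytochrome c, and it was described here through 10 of its genes, chosen by symbol from the 15597 genes listed for every library. These were 4 anti-apoptotic genes (BCL2, BCL2L1, MCL1, BCL2A1), 4 BH3-only genes (BCL2L11, BMF, PMAIP1, BBC3) and 2 effector genes (BAX, BAK1). All 10 were listed in all 8 libraries. The libraries came from SUDHL-4, an established germinal-centre-type cell line of diffuse large B-cell lymphoma, and the series asks what raised FDX1 does to expression under elesclomol (ES). FDX1 is the mitochondrial iron-sulfur protein ferredoxin 1, and elesclomol is a copper ionophore. The 4 groups were control cells (genotype WT) in DMSO, FDX1-overexpressing (FDX1-OE) cells in DMSO, control cells in 5 nM ES, and FDX1-OE cells in 5 nM ES, each for 48 h with 2 libraries. The sources used here do not give the promoter or vector of the transgene, the vector of the control cells, or whether the FDX1-OE cells are 1 clone. Reads of the transgene and of the cell's own FDX1 were not told apart.

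Proteins of this family meet at the outer mitochondrial membrane. BAX and BAK1 oligomerise and open pores in it, the anti-apoptotic proteins hold them and the BH3-only proteins in check, and the BH3-only proteins answer stress by binding the anti-apoptotic proteins or by activating the effectors. In germinal-centre B cells BCL2 is normally silent, and lymphomas of that origin, SUDHL-4 among them, often express it through the translocation that joins BCL2 to the immunoglobulin heavy chain locus. Much of the control of these proteins lies in splicing, protein turnover and binding, none of which a gene-level RNA value shows.

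Levels are given as FPKM, the reads of a gene scaled to its length and to the library total. The library totals lay between 33435438 and 35883528 reads. FDX1 stood at 25.6 and 22.2 FPKM in control cells in DMSO against 72.4 and 69.9 FPKM in FDX1-OE cells in DMSO, and at 21.3 and 21.4 against 82.5 and 84.8 FPKM in ES. All 12 B-cell and germinal-centre markers reached 1 FPKM, and their summed level was 1621 to 2026 FPKM. Of 10 listed myeloid markers 8 stayed under 1 FPKM in every library, CD14, LYZ and CSF1R among them, and the list summed to 4.13 to 4.35 FPKM in control cells in DMSO, 7.12 to 8.22 FPKM in FDX1-OE cells in DMSO, 12.5 to 16.8 FPKM in control cells in ES and 36.9 to 40.3 FPKM in FDX1-OE cells in ES. Nearly all of that sum was CD68 and FCER1G, which moved with ES as several members did, and their part in the members' changes was not tested. The T and NK markers were under 1 FPKM in every library except CD3E and CD247 (summed level 19.8 to 27.9 FPKM over 7 listed genes), and the epithelial and stromal markers except DCN and PECAM1 (10.02 to 15.9 FPKM over 12 genes).

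The DNA before the start site is shown for 4 members, since these genes lie at or near the opposite ends of the family's response to ES. They are the effectors and the genes of the anti-apoptotic and BH3-only classes that moved most on the scale of log2(FPKM + 1). In FDX1-OE cells PMAIP1 led BMF narrowly on that scale (0.99 against 0.97). By the ratio of mean FPKM there, BBC3 (2.23) and BMF (2.06) lay above PMAIP1 (2.02). Each run is the 250 bases before the RefSeq start on build GRCh38.p14, 5′ to 3′ on the gene's strand. RefSeq's promoter table held a window for 9 of the 10 members, and MCL1 was not among them. Capitals mark matches, on either strand, to 6 motifs chosen after the values were seen: the E-box CACGTG, the cAMP response element core TGACGT, the C/EBP-ATF site TGATGCAA, the interferon-stimulated response element (GAAA, any 2 bases, GAAA), the NF-kB site (GGG, any 2 bases, TTTCC) and the AP-1 site TGACTCA. BCL2A1 lies at chr15:79971197-79971446 (minus strand), PMAIP1 at chr18:59899746-59899995 (plus), BAX at chr19:48954625-48954874 (plus) and BAK1 at chr6:33580277-33580526 (minus).
BCL2A1: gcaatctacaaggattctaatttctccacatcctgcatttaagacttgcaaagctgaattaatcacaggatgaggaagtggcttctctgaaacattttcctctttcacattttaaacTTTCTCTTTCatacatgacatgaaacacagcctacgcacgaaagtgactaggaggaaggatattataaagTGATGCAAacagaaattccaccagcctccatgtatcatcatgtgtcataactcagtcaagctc
PMAIP1: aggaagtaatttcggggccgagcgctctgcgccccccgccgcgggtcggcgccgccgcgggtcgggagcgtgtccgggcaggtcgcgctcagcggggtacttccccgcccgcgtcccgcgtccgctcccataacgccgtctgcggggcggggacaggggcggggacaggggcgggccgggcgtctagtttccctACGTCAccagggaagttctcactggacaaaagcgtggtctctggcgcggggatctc
BAX: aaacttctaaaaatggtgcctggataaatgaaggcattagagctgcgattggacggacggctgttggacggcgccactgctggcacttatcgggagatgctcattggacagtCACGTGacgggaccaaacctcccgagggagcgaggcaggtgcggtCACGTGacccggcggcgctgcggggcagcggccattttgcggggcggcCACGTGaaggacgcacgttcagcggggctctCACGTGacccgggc
BAK1: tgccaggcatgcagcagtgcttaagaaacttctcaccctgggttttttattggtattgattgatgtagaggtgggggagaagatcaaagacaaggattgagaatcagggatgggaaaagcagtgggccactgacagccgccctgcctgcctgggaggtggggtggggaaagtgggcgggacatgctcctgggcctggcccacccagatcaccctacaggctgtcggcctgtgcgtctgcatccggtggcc

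The BCL2A1 window held 1 match to the interferon-stimulated response element, 133 to 124 bases before the start, and 1 to the C/EBP-ATF site, 63 to 56 bases before it. Over 34786 distinct RefSeq windows of the same length, 3.02% held a match to the former and 0.776% to the latter. The PMAIP1 window held the cAMP response element core 56 to 51 bases before the start, as did 7.09% of all windows. BAX stood out by 4 E-boxes, while 6.31% of all windows held at least 1 and 5 of the 34786 windows (0.0144%) held at least 4. The BAK1 window held no match to these 6 motifs. Of the members not printed, BBC3 had 1 E-box and 1 AP-1 match (4.21% of all windows), and BCL2, BCL2L1, BCL2L11 and BMF had no match. The NF-kB motif, held by 1.73% of all windows, was in no window of a member. These matches are letters in a fixed window and not measured binding.

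Under ES the members called higher were anti-apoptotic or BH3-only genes and those called lower were effectors. In control cells 5 of the 10 members rose and 2 fell, and in FDX1-OE cells 7 rose and 1 fell (limma on log2(FPKM + 1), adjusted p below 0.05 over 9805 genes). BBC3 was tested only because its ES libraries passed the filter on low values, and without it 5 of 9 members rose and 2 fell in control cells and 6 rose and 1 fell in FDX1-OE cells. BCL2A1, BCL2L1, BCL2L11, BMF and PMAIP1 rose in both genotypes, while MCL1 and BBC3 passed in FDX1-OE cells and not in control cells. BAK1 fell in both genotypes, BAX fell in control cells, and BCL2 passed in neither. Much of the transcriptome moved as well: 25.5% of all genes tested were called higher and 12.9% lower in control cells, and 37% higher and 19.2% lower in FDX1-OE cells. The difference between classes was not tested. Without regard to the test, both ES libraries lay above both DMSO libraries for 6 members and below for 2 in control cells, where 45.1% and 26.1% of all genes tested did so, and for 7 and 2 members in FDX1-OE cells, where 50.6% and 29% did. BBC3 was among these 7, and its level in those ES libraries was also what admitted it to the test. The median log2 change of the 10 members was 0.20 in control cells and 0.63 in FDX1-OE cells (0.28 and 0.69 without BBC3), beside 0.06 and 0.09 over all genes tested. Scaling libraries by RLE (the median of ratios between libraries) changed the split of all calls from 66.3% to 49.6% higher in control cells and from 65.9% to 49.9% in FDX1-OE cells, and it turned the direction of no member's ES change. RNA of whole cultures does not tell a change in every cell from a change in the share of cells that express a gene.

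**Figure D1:**
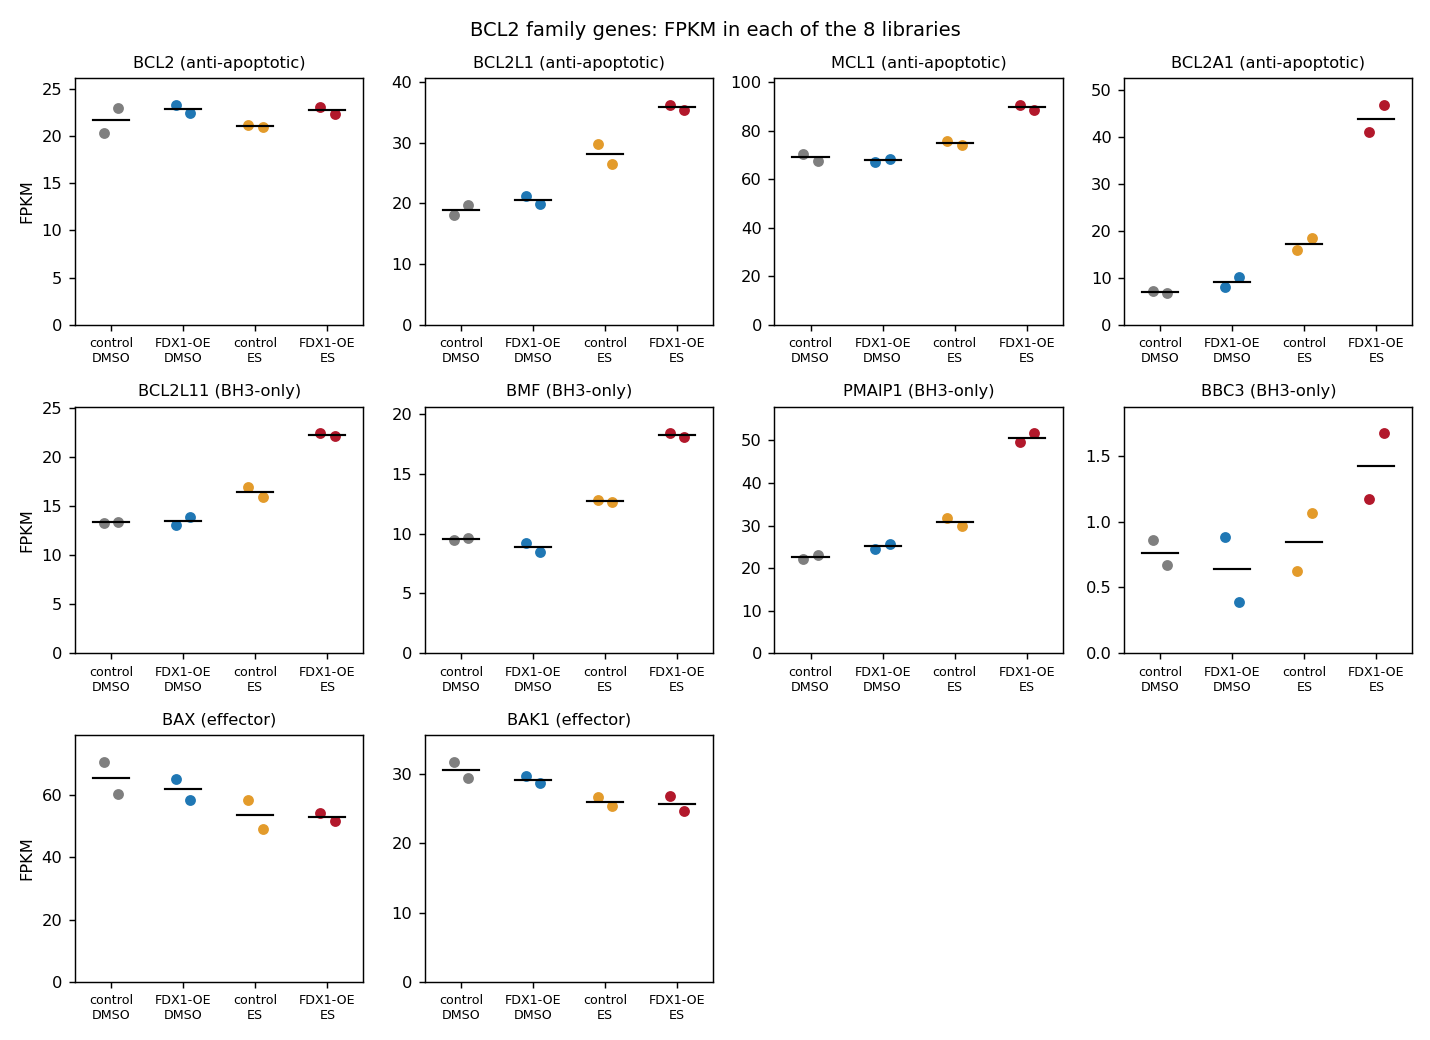
FPKM (y axis, from 0) of each of the 10 members in the 8 libraries, by group, with points for libraries and bars for the mean of 2. BCL2A1 goes from 7.03 FPKM in control cells in DMSO to 43.9 FPKM in FDX1-OE cells in ES, BCL2 stays between 20.3 and 23.3 FPKM, and BAX and BAK1 are lower in ES.

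Among the anti-apoptotic genes BCL2A1 moved most. BCL2A1, also called BFL-1 or A1, is an NF-kB target of activated B cells whose product binds BH3-only proteins such as NOXA and BIM. It stood at 7.23 and 6.83 FPKM in control cells in DMSO, 8.01 and 10.2 FPKM in FDX1-OE cells in DMSO, 16.0 and 18.4 FPKM in control cells in ES, and 41.0 and 46.9 FPKM in FDX1-OE cells in ES. The groups lay in that order without overlap. ES raised it 2.26 times on the scale of FPKM + 1 in control cells (log2 change 1.18, SE 0.107, adjusted p = 3.58e-05) and 4.46 times in FDX1-OE cells (log2 change 2.16, adjusted p = 2.65e-07).

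BCL2L1 encodes BCL-XL, which guards against both BAX and BAK1 and also, as the splice form BCL-XS, a protein that promotes death, and FPKM per gene does not part these forms. It stood at 18.1 and 19.6 FPKM in control cells and 21.2 and 19.9 FPKM in FDX1-OE cells given DMSO. With ES it was 29.8 and 26.5 FPKM in control cells and 36.2 and 35.4 FPKM in FDX1-OE cells. Every ES library was above every DMSO library, and ES raised BCL2L1 1.46 times in control cells (log2 change 0.55, SE 0.0701, adjusted p = 0.000286) and 1.71 times in FDX1-OE cells (log2 change 0.77, adjusted p = 1.05e-05).

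MCL1 is a short-lived guardian that B cells depend on and that NOXA targets for degradation. It had the highest level of the 4 anti-apoptotic genes in every library, with 70.5 and 67.4 FPKM in control cells and 67.1 and 68.3 FPKM in FDX1-OE cells given DMSO. With ES its values were 75.8 and 74.1 FPKM in control cells and 90.6 and 88.6 FPKM in FDX1-OE cells. The ES libraries lay above the DMSO libraries in both genotypes. The difference passed in FDX1-OE cells (log2 change 0.40, SE 0.0494, adjusted p = 7.53e-05) and not in control cells (0.12, 95% interval 0.01 to 0.23, adjusted p = 0.0784).

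BCL2 itself, the target of venetoclax and the founder of the family, was the steadiest of the 4. It stood at 20.3 and 23.0 FPKM in control cells in DMSO, 23.3 and 22.4 FPKM in FDX1-OE cells in DMSO, 21.2 and 21.0 FPKM in control cells in ES and 23.1 and 22.3 FPKM in FDX1-OE cells in ES. The ES and DMSO libraries overlapped in both genotypes. The 95% interval of the log2 change with ES ran from -0.18 to 0.11 in control cells (adjusted p = 0.721) and from -0.16 to 0.14 in FDX1-OE cells (adjusted p = 0.912).

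These shifts changed the order of levels in FPKM. That order rests on the length taken for each gene, which the sources used here do not give. The change of a ratio between libraries does not rest on it. In DMSO the order was MCL1, BCL2, BCL2L1 and BCL2A1 in each of the 4 libraries. In both control libraries in ES, BCL2L1 lay above BCL2, and in both FDX1-OE libraries in ES, BCL2L1 and BCL2A1 both lay above it, with BCL2A1 the higher of that pair. The ratio of BCL2L1 to BCL2 was 0.855 to 0.912 over the DMSO libraries, 1.41 and 1.26 in control cells in ES and 1.57 and 1.59 in FDX1-OE cells in ES. That of BCL2A1 to BCL2 was 0.297 to 0.457 in DMSO, 0.756 and 0.877 in control cells in ES, and 1.77 and 2.10 in FDX1-OE cells in ES.

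Of the BH3-only genes PMAIP1 had the highest level in every library. PMAIP1 is a stress-response gene, and its product NOXA binds MCL1 and A1. It stood at 22.2 and 23.0 FPKM in control cells in DMSO, 24.6 and 25.6 FPKM in FDX1-OE cells in DMSO, 31.7 and 29.8 FPKM in control cells in ES, and 49.6 and 51.7 FPKM in FDX1-OE cells in ES. No group overlapped the next. ES raised it 1.34 times in control cells (log2 change 0.43, SE 0.0575, adjusted p = 0.000388) and 1.98 times in FDX1-OE cells (log2 change 0.99, adjusted p = 7.31e-07). Its ratio to MCL1 was 0.315 and 0.341 in control cells in DMSO, 0.366 and 0.375 in FDX1-OE cells in DMSO, 0.418 and 0.402 in control cells in ES, and 0.548 and 0.583 in FDX1-OE cells in ES.

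BMF, which is tethered to the cytoskeleton until stress frees it, showed a like pattern from a lower level. Its values were 9.45 and 9.63 FPKM in control cells in DMSO, 9.23 and 8.47 FPKM in FDX1-OE cells in DMSO, 12.8 and 12.7 FPKM in control cells in ES and 18.4 and 18.1 FPKM in FDX1-OE cells in ES. All ES libraries were above all DMSO libraries. The rise was 1.30 times in control cells (log2 change 0.38, SE 0.0631, adjusted p = 0.00113) and 1.95 times in FDX1-OE cells (log2 change 0.97, adjusted p = 1.41e-06).

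BCL2L11 encodes BIM, which binds every anti-apoptotic member and is made in several splice forms that gene-level values do not part. It was at 13.3 and 13.4 FPKM in control cells in DMSO, 13.1 and 13.9 FPKM in FDX1-OE cells in DMSO, 16.9 and 15.9 FPKM in control cells in ES, and 22.4 and 22.2 FPKM in FDX1-OE cells in ES. The DMSO groups overlapped each other and neither ES group. ES raised it 1.21 times in control cells (log2 change 0.28, SE 0.0608, adjusted p = 0.00509) and 1.61 times in FDX1-OE cells (log2 change 0.69, adjusted p = 8.8e-06).

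BBC3, which encodes PUMA, was near the limit of what was tested, and it passed the filter of 1 FPKM in at least 2 libraries only through ES libraries. Its values were 0.860 and 0.669 FPKM in control cells in DMSO, 0.884 and 0.390 FPKM in FDX1-OE cells in DMSO, 0.628 and 1.07 FPKM in control cells in ES and 1.17 and 1.67 FPKM in FDX1-OE cells in ES. They rest on 31 to 140 reads, and the 95% Poisson interval of the lowest library, 21.1 to 44.0 reads, covers counting error only. Both FDX1-OE libraries in ES were above all others, which is also what admitted the gene to the test, and it was called higher with ES in FDX1-OE cells (log2 change 0.57, SE 0.165, adjusted p = 0.0127). That call was lost without FDX1-OE DMSO replicate 2 (log2 change 0.35, adjusted p = 0.116), without FDX1-OE ES replicate 2 (0.43, adjusted p = 0.103) and with the filter dropped (adjusted p = 0.0677). In control cells BBC3 did not pass (0.06, 95% interval -0.31 to 0.42, adjusted p = 0.802).

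Among the effectors BAX fell in control cells and BAK1 in both genotypes, and each of these 3 calls was lost when some single libraries were left out. BAX, the effector that shuttles between the cytosol and mitochondria, was at 70.8 and 60.3 FPKM in control cells in DMSO, 65.3 and 58.4 FPKM in FDX1-OE cells in DMSO, 58.4 and 49.1 FPKM in control cells in ES and 54.4 and 51.9 FPKM in FDX1-OE cells in ES. In each genotype both ES libraries lay below both DMSO libraries, in control cells by a narrow gap. BAX fell in control cells (log2 change -0.28, SE 0.0943, adjusted p = 0.0364) and did not pass in FDX1-OE cells (-0.21, adjusted p = 0.0756). Leaving out control DMSO replicate 1 ended the first call (-0.17, adjusted p = 0.26), as did leaving out control ES replicate 2 (-0.16, adjusted p = 0.249), dropping the filter (adjusted p = 0.147) and fitting no mean trend (adjusted p = 0.0609). In FDX1-OE cells BAX passed with RLE scaling (adjusted p = 0.0157), when only the 4 libraries compared were fitted (adjusted p = 0.0231) and with the replicate number as a block (adjusted p = 0.00949).

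BAK1, the effector that sits in the outer membrane, had 31.8 and 29.4 FPKM in control cells and 29.7 and 28.7 FPKM in FDX1-OE cells given DMSO. With ES it had 26.7 and 25.3 FPKM in control cells and 26.8 and 24.6 FPKM in FDX1-OE cells. All ES libraries were below all DMSO libraries. The fall was to 0.855 times the DMSO level in control cells (log2 change -0.23, SE 0.0642, adjusted p = 0.0183) and to 0.885 times in FDX1-OE cells (-0.18, adjusted p = 0.037). The first call was lost when control DMSO replicate 1 (-0.17, adjusted p = 0.127) or the second ES library of control cells (-0.19, adjusted p = 0.0988) was left out. The second was lost under 5 of 12 alternatives, among them leaving out FDX1-OE DMSO replicate 1 (-0.15, adjusted p = 0.163), its replicate 2 (-0.20, adjusted p = 0.0766) or the second ES library of FDX1-OE cells (-0.12, adjusted p = 0.224). BAK1 has 2 named pseudogene copies in RefSeq, BAK1P1 and BAK1P2, and the sources used here do not say how reads of such copies were assigned, so its level is uncertain to that extent.

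**Figure D2:**
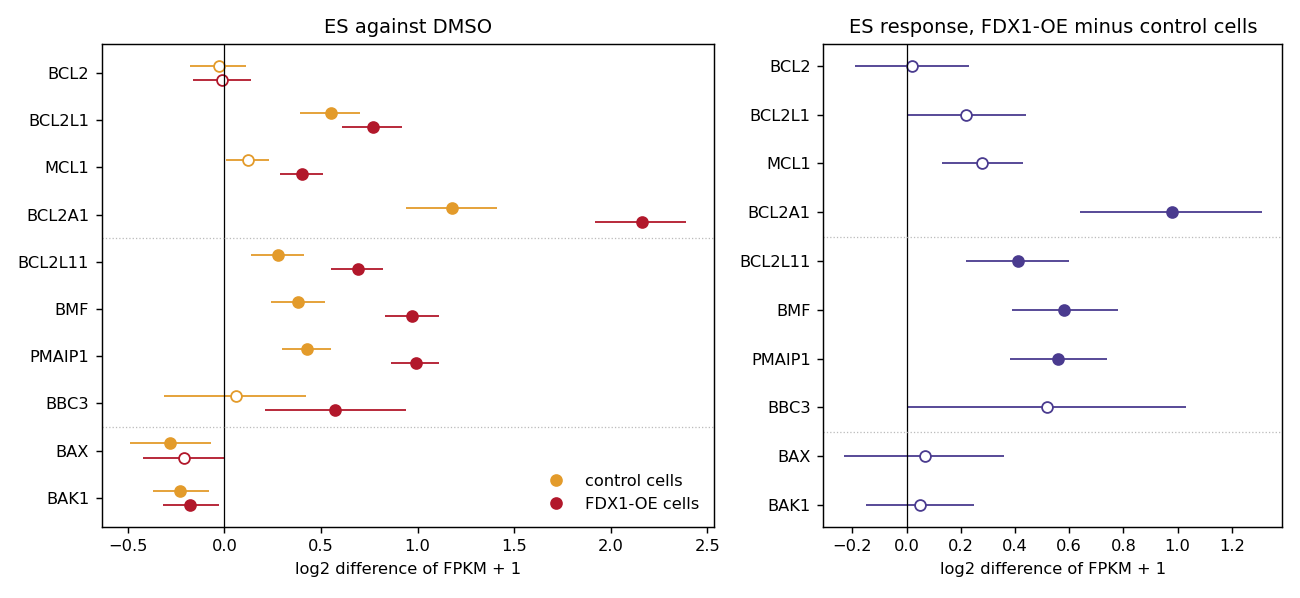
Log2 difference of FPKM + 1 (x axis) for each member, ES against DMSO in each genotype on the left and the FDX1-OE response minus the control response on the right, with bars for 95% intervals and filled points for adjusted p below 0.05. BCL2A1, BMF, PMAIP1 and BCL2L11 have filled interaction points. BBC3 (0.52), MCL1 (0.28) and BCL2L1 (0.22) also lie to the right there and are not filled. BCL2, BAX and BAK1 have interaction values of 0.02, 0.07 and 0.05 with intervals across 0.

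Without ES, raised FDX1 brought no called difference in the family. In DMSO none of the 10 members was called by limma or by voom (limma's fit to reads) between FDX1-OE and control cells, and 2 had an unadjusted p under 0.05. These were BCL2A1 (log2 difference 0.33, 95% interval 0.09 to 0.56, adjusted p = 0.445) and PMAIP1 (0.14, 95% interval 0.02 to 0.27, adjusted p = 0.588), both chosen after their values were seen. Of all genes tested 0.428% were called higher and 0.0816% lower. Both FDX1-OE libraries lay above both control libraries for 3 members and below for 1, beside 18.2% and 18.1% of all genes tested. This comparison shares the control DMSO libraries with the ES comparison in control cells. For the other 8 members the log2 difference lay between -0.12 (BBC3) and 0.12 (BCL2L1).

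In ES the genotypes differed, with 6 of the 10 members higher in FDX1-OE cells, beside 13.6% of all genes tested called higher and 7.78% lower. Both FDX1-OE libraries lay above both control libraries for 8 members, beside 35.6% of all genes tested above and 25.4% below. BBC3 was among the 8, and its level in the FDX1-OE ES libraries was also what admitted it to the test. RLE scaling changed the split of all calls from 63.6% to 51.5% higher. BCL2A1 was 2.47 times higher (log2 difference 1.30, SE 0.107, adjusted p = 4.76e-05) and PMAIP1 1.63 times (log2 difference 0.70, adjusted p = 4.76e-05). BMF was 1.40 times higher (adjusted p = 0.000771), BCL2L11 1.34 times (adjusted p = 0.00139) and MCL1 1.19 times (adjusted p = 0.00586). BCL2L1 was 1.26 times higher (adjusted p = 0.00796), a call lost when the second control library (log2 difference 0.26, adjusted p = 0.0731) or the first FDX1-OE library (0.32, adjusted p = 0.0527) was left out. BBC3 did not pass (0.39, adjusted p = 0.116), though both FDX1-OE libraries were above both control libraries. BCL2 (0.10, 95% interval -0.05 to 0.25), BAX (-0.01, -0.22 to 0.20) and BAK1 (-0.02, -0.16 to 0.13) did not pass either. This comparison shares its ES libraries with the ES comparisons above.

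The interaction asks whether ES acted more strongly where FDX1 was raised. It was called for 4 of the 10 members, all toward a larger rise in FDX1-OE cells, beside 3.25% of all genes tested in that direction and 1.05% in the other (75.6% of all interaction calls toward FDX1-OE cells, and 62% with RLE scaling). The difference of log2 changes was 0.98 for BCL2A1 (SE 0.151, adjusted p = 0.00903), 0.58 for BMF (SE 0.0893, adjusted p = 0.00882), 0.56 for PMAIP1 (SE 0.0813, adjusted p = 0.00722) and 0.41 for BCL2L11 (SE 0.0859, adjusted p = 0.0307). BMF and PMAIP1 kept the call under all 15 alternatives and BCL2A1 under 14, the exception being the fit without the filter (adjusted p = 0.077). For BCL2L11 the call was lost in 7 of 8 fits that left out 1 library (adjusted p from 0.0629 to 0.118) and without the filter (adjusted p = 0.059), while its value stayed between 0.36 and 0.45. Leaving out control ES replicate 1 did not end it. MCL1 lay at the threshold (0.28, SE 0.0698, adjusted p = 0.0511) and passed with voom (adjusted p = 0.0279), among genes averaging 5 FPKM or more (adjusted p = 0.049) and with the replicate block (adjusted p = 0.0472). BCL2L1 (0.22, 95% interval 0.00 to 0.44, adjusted p = 0.222) and BBC3 (0.52, 95% interval 0.00 to 1.03, adjusted p = 0.226) did not pass. For the effectors the intervals ran from -0.23 to 0.36 (BAX, adjusted p = 0.808) and from -0.15 to 0.25 (BAK1, adjusted p = 0.795).

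Summed by class, the anti-apoptotic genes held 116.1 and 116.8 FPKM in control cells in DMSO, 119.6 and 120.9 FPKM in FDX1-OE cells in DMSO, 142.8 and 140.0 FPKM in control cells in ES, and 190.9 and 193.1 FPKM in FDX1-OE cells in ES. The BH3-only genes held 45.9 and 46.7, 47.8 and 48.4, 62.1 and 59.4, and 91.6 and 93.6 FPKM in the same groups. In both sums the groups lay in that order, and none overlapped the next. The effectors held 102.6 and 89.8, 95.0 and 87.1, 85.1 and 74.5, and 81.3 and 76.5 FPKM, so their ES libraries lay below their DMSO libraries while the 2 genotypes overlapped. The sums are descriptions of chosen genes and were not tested.

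Relative to each other, the BH3-only sum was 0.395 to 0.400 of the anti-apoptotic sum in the 4 DMSO libraries, 0.435 and 0.424 in control cells in ES and 0.480 and 0.485 in FDX1-OE cells in ES. The ratio of the anti-apoptotic to the effector sum went from a mean of 1.22 in control cells in DMSO and 1.32 in FDX1-OE cells in DMSO to 1.78 in control cells in ES and 2.44 in FDX1-OE cells in ES. That of the BH3-only to the effector sum rose too, from 0.484 and 0.529 to 0.764 and 1.18 in the same groups. Within the anti-apoptotic sum, BCL2A1 made up 6.04% in control cells in DMSO and 22.9% in FDX1-OE cells in ES, and MCL1 59.2% and 46.7%. Within the BH3-only sum the shares shifted less: PMAIP1 made up 48.9% and 54.7%, and BCL2L11 28.9% and 24.1%. BAX held 67.4% to 68.2% of the effector sum in all 4 groups.

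**Figure D3:**
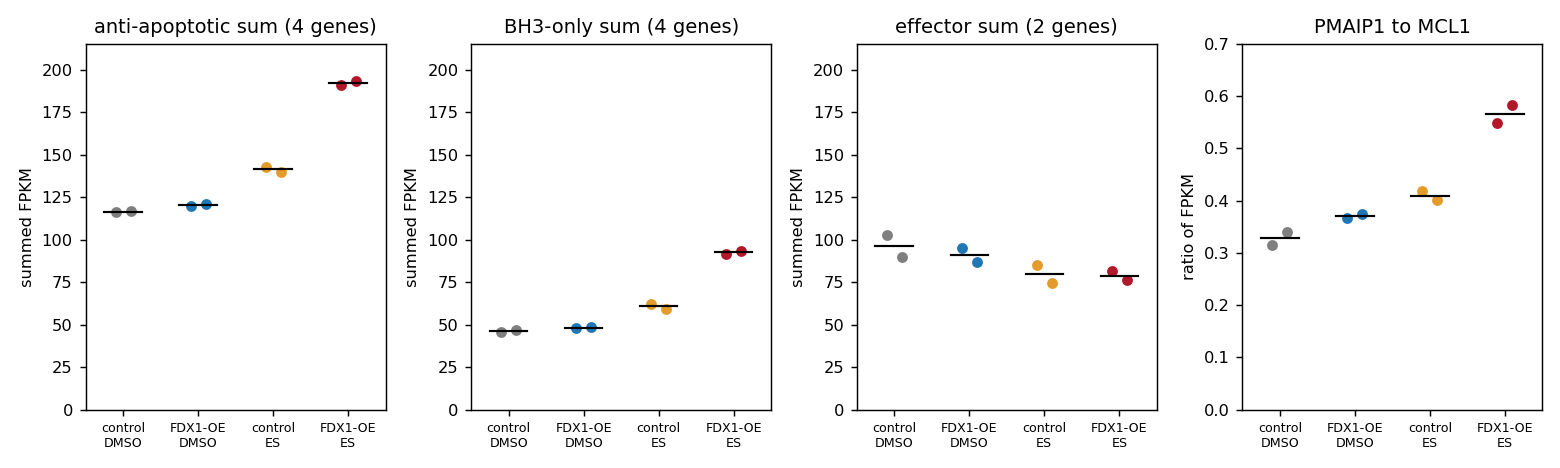
Summed FPKM (y axis, from 0) of the anti-apoptotic, BH3-only and effector genes and, at the right, the ratio of PMAIP1 to MCL1 FPKM, by group, with points for libraries and bars for the mean of 2. The BH3-only sum goes from 46.3 to 92.6 FPKM and the effector sum from 96.2 to 78.9 FPKM between control cells in DMSO and FDX1-OE cells in ES.

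Beyond the 10 genes, 18 further genes of the wider family were listed, and 13 passed the filter. Of these 13, BCL2L2, HRK and BCL2L14 passed it only through ES libraries, so they are described by their levels and left out of the counts. With ES 3 of the other 10 (30%) rose in control cells and 4 (40%) in FDX1-OE cells, near the 25.5% and 37% of all genes tested. Those shares of all genes keep the genes that passed only through ES libraries. The anti-apoptotic BCL2L2 (BCL-w), which may share reads with the readthrough gene BCL2L2-PABPN1, had a mean of 0.988 FPKM in DMSO and 1.47 FPKM in ES in control cells and of 0.991 and 1.74 FPKM in FDX1-OE cells. The BH3-only gene HRK (Harakiri) had 0.247 and 0.787 FPKM in control cells and 0.240 and 1.32 FPKM in FDX1-OE cells. BNIP3L and BNIP3, mitophagy receptors with a BH3-like stretch, rose in control cells (0.49, adjusted p = 0.000875, and 0.45, adjusted p = 0.00504) and in FDX1-OE cells (0.66, adjusted p = 5.49e-05, and 0.26, adjusted p = 0.0447). BECN1, an autophagy protein that BCL2 binds through its BH3 domain, rose by 0.33 (adjusted p = 0.00275) and 0.55 (adjusted p = 4.77e-05) on the log2 scale.

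BCL2L13, a mitophagy receptor, rose with ES in FDX1-OE cells (0.29, adjusted p = 0.00235). BCL2L14, which encodes BCL-G, had 0 to 5 reads in the 4 DMSO libraries, 9 and 3 reads in control cells in ES and 111 and 109 reads in FDX1-OE cells in ES. The remaining genes did not pass with ES in either genotype: BID, which links death receptors to mitochondria, was at 22.1 to 24.6 FPKM, BAD at 35.8 to 47.3 FPKM, BIK at 5.30 to 7.66 FPKM, BCL2L12 at 21.6 to 26.1 FPKM, BNIP1 at 7.18 to 10.03 FPKM and BNIP2 at 10.7 to 12.5 FPKM. The third effector-like gene, BOK, was at 0 to 0.0409 FPKM and was not tested.

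**Figure D4:**
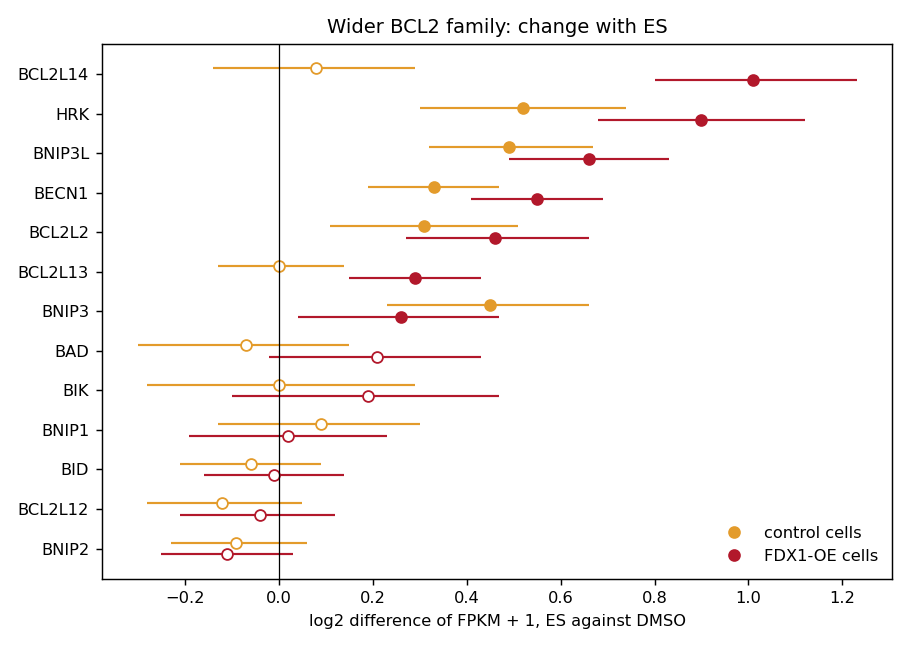
Log2 difference of FPKM + 1 (x axis), ES against DMSO, for the 13 tested genes of the wider family list in control and FDX1-OE cells, with bars for 95% intervals and filled points for adjusted p below 0.05. HRK, BNIP3L, BNIP3, BECN1 and BCL2L2 are filled in both genotypes, BCL2L14 and BCL2L13 in FDX1-OE cells, but HRK, BCL2L2 and BCL2L14 were tested only because their ES libraries passed the filter.

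Regulators known to act on these genes were counted too, here and below without the genes that passed the filter only through ES libraries (2 regulators, 3 NF-kB targets and 1 death receptor gene). The shares of all genes tested set beside these counts keep such genes, so the 2 are not filtered alike. Of 19 transcription regulators 10 (52.6%) rose and 2 (10.5%) fell in control cells, beside 25.5% and 12.9% of all genes tested, and 13 (68.4%) rose and 3 (15.8%) fell in FDX1-OE cells, beside 37% and 19.2%. Their median log2 change was 0.20 and 0.24, beside 0.06 and 0.09 over all genes tested. IRF1, an interferon-response factor, rose 1.98 times (adjusted p = 3.71e-05) and 2.71 times (adjusted p = 1.18e-06). DDIT3 and ATF3, stress-response factors, were named after their values were seen, for their textbook role upstream of PMAIP1, BBC3 or BCL2L11. DDIT3 rose by 0.37 (adjusted p = 0.00919) and 0.88 (adjusted p = 2.3e-05) on the log2 scale. ATF3, which only its FDX1-OE ES libraries carried past the filter, had a mean of 0.245 FPKM in DMSO and 0.817 FPKM in ES in control cells and of 0.271 and 2.87 FPKM in FDX1-OE cells.

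Of 14 NF-kB targets 10 (71.4%) rose in control cells and 12 (85.7%) in FDX1-OE cells (median log2 change 0.47 and 1.14), beside 25.5% and 37% of all genes tested. An interaction toward FDX1-OE cells was called for 9 of the 14 (64.3%), beside 3.25% of all genes tested. The list was chosen with earlier results of these data known. It shares genes with the regulators above and with the outer membrane and apoptosome genes below, so these counts are not separate. LTB, a lymphotoxin subunit, rose 2.15 times (adjusted p = 4.5e-06) and 3.68 times (adjusted p = 7.85e-08). EBI3, an interleukin subunit, rose 5.71 times in control cells (adjusted p = 4.5e-06) and 13.7 times in FDX1-OE cells (adjusted p = 1.43e-07). The chemokine CCL22, which passed the filter only through ES libraries, had a mean of 0.0864 FPKM in DMSO and 7.41 FPKM in ES in FDX1-OE cells. The part of these genes in the changes of BCL2A1 or PMAIP1 was not tested.

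Downstream of the pores, 3 of 18 genes of the outer membrane and the apoptosome (16.7%) rose and 5 (27.8%) fell in control cells, and 5 (27.8%) rose and 5 fell in FDX1-OE cells. The share that rose was below the 25.5% and 37% of all genes tested, and the share that fell above their 12.9% and 19.2% (median log2 change -0.02 and 0.08). BIRC3, an NF-kB-induced inhibitor of apoptosis, rose 1.53 times (adjusted p = 0.000217) and 2.08 times (adjusted p = 2.23e-06). CYCS, cytochrome c itself, fell to 0.773 times its DMSO level in control cells (adjusted p = 0.00108) and 0.847 times in FDX1-OE cells (adjusted p = 0.00655). VDAC1, an outer membrane channel, fell to 0.856 times in control cells (adjusted p = 0.00949) and 0.714 times in FDX1-OE cells (adjusted p = 4.45e-05). Of 19 binding partners and turnover factors 3 (15.8%) rose and 2 (10.5%) fell in control cells, and 8 (42.1%) rose and 3 (15.8%) fell in FDX1-OE cells, read against the same shares of all genes. BAG1, a BCL2-binding co-chaperone, fell to 0.690 times (adjusted p = 7.78e-05) and 0.647 times (adjusted p = 7.61e-06), and BCAP31, an ER membrane protein that binds BCL2, to 0.743 times (adjusted p = 0.000151) and 0.763 times (adjusted p = 8.36e-05). Of 7 genes of the death receptor route that feeds BID, 3 (42.9%) rose and 1 (14.3%) fell in control cells, and 4 (57.1%) rose and 2 (28.6%) fell in FDX1-OE cells. Of all genes tested 25.5% rose and 12.9% fell in control cells, and 37% rose and 19.2% fell in FDX1-OE cells. TNFSF10, the death ligand TRAIL, rose 3.29 times (adjusted p = 2.68e-05) and 8.04 times (adjusted p = 2.65e-07). The receptor gene TNFRSF1A, which passed the filter only through ES libraries, had a mean of 0.334 FPKM in DMSO and 1.63 FPKM in ES in control cells and of 0.449 and 3.44 FPKM in FDX1-OE cells.

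The genes most like each member over the 8 libraries were found by the root-mean-square difference of log2(FPKM + 1) after centring each gene, for the 6 members whose group means spanned at least 0.5. For BCL2A1 these were HLA-B (0.128) and MOV10 (0.154), for BCL2L1 PNPLA2 (0.043) and DCAKD (0.046), and for BCL2L11 SERPINA9 (0.035) and FN3KRP (0.04). BMF lay nearest to CCS (0.048), the copper chaperone of superoxide dismutase, and to STS (0.05). PMAIP1 lay nearest to SQSTM1 (0.064), an autophagy receptor, and to ZCCHC24 (0.068), and BBC3 to YIPF4 (0.092) and FMO4 (0.108). CCS went from 18.2 FPKM in control cells in DMSO and 17.4 FPKM in FDX1-OE cells in DMSO to 23.4 FPKM in control cells in ES and 32.6 FPKM in FDX1-OE cells in ES, and SQSTM1 from 43.7 and 44.7 FPKM to 53.2 and 89.9 FPKM. MOV10 averaged 0.16 FPKM in control cells and 0.43 FPKM in FDX1-OE cells in DMSO, and FMO4 0.74 and 0.47 FPKM. Both needed their ES libraries to pass the filter, as BBC3 did, so their place among the genes searched is tied to their level in ES. The 8 libraries share their 4 groups, so likeness here means like group means.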

How the data were processed

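The deposited values are FPKM made by the authors, 1 file per library. The file headers name no unit, so it was read from the values. The submitters' processing notes name HTSeq, HISAT2, R 3.2.0 and build hg19 without their roles, and the sources used here give no annotation. Low values step by what 1 read is worth, which gave whole reads for 100% of genes (tolerance 0.02 read), and these recovered reads gave the depths and a voom alternative.

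Groups were compared in R 4.3.3 by limma 3.58.1 on log2(FPKM + 1), with 4 group means fitted to 8 libraries (4 residual and 6.6 prior degrees of freedom), a mean trend, two-sided tests and Benjamini-Hochberg adjustment over the 9805 genes that reached 1 FPKM in 2 or more libraries. Folds are on the scale of FPKM + 1 and understate changes of low genes. The 2 replicates of a group differed beyond sampling noise (chi-square per gene 6.55 to 9.64). Nothing says that they were separate cultures, so a p-value here speaks of the spread among libraries, which may be technical. On simulated libraries the fit recovered changed genes with somewhat more false calls than the threshold allows. The comparisons were ES against DMSO in each genotype, FDX1-OE against control cells in each treatment, and the interaction.

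The members, gene lists and tests were chosen with earlier results of these data known. Named are all members, FDX1, the tested genes of the wider family, the 2 genes of smallest p per other list and genotype, and the 2 genes nearest to each member that spanned 0.5. Some genes and 1 list that this rule covers are not reported here. Counting lists without genes that reached the filter in fewer than 2 DMSO libraries was chosen after the data were seen. The shares over all genes tested were not recounted in that way. Alternatives were another pseudocount, 2 other filters, RLE scaling, a fit to the libraries compared, no mean trend, voom, a replicate block and leaving out each library. Upstream windows came from RefSeq (GRCh38.p14), not the build of the files. Counting intervals cover counting error only.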

Additional observations from a re-analysis of the deposited data

Results flagged for a closer look

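For 4 members the response to ES differed between FDX1-OE and control cells by the interaction test of limma. All 4 rose more in FDX1-OE cells, beside 3.25% of all genes tested called in that direction and 1.05% in the other. The difference of log2 changes was 0.98 for BCL2A1 (2.16 in FDX1-OE cells against 1.18 in control cells, adjusted p = 0.00903), 0.58 for BMF (0.97 against 0.38, adjusted p = 0.00882), 0.56 for PMAIP1 (0.99 against 0.43, adjusted p = 0.00722) and 0.41 for BCL2L11 (0.69 against 0.28, adjusted p = 0.0307). BCL2A1, BMF and PMAIP1 passed in every fit that left out 1 library, and BCL2L11 passed in 1 of 8.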

How the results depend on the processing

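Of the 25 member calls over the 5 comparisons, 18 held under every alternative, 7 were lost under at least 1 and none reversed, and 2 of the 25 values not called passed under at least 1. The members called lower with ES in control cells (2) became 1 without the filter on low values and 1 without the mean trend, and 0 to 2 over the fits that left out 1 library. Those in FDX1-OE cells (1) became 0 without the filter, 0 without the trend, 2 with RLE scaling, 2 in a fit to the compared libraries, 2 with the replicate block, and 0 to 1 with a library left out. Interaction calls of members (4) became 2 without the filter. Over the whole table, the 50 genes called between genotypes in DMSO became 2 without the filter, 82 with voom and 15 to 64 with a library left out. The 2094 called between genotypes in ES ranged from 748 to 1812 with a library left out. The 422 interaction calls became 222 at a pseudocount of 0.1, 176 without the filter, 278 without the trend, 639 with voom, and 79 to 630 with a library left out. The causes were not tested.

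Values that changed sign were all of members not called. The interaction of BCL2 was -0.01 with RLE scaling. With a library left out, the change with ES ran from -0.12 to 0.05 for BCL2 and from -0.11 to 0.23 for BBC3 in control cells, and from -0.04 to 0.02 for BCL2 in FDX1-OE cells. The genotype difference in DMSO ran from -0.01 to 0.16 for BCL2, -0.06 to 0.01 for MCL1, -0.03 to 0.05 for BCL2L11, -0.34 to 0.1 for BBC3 and -0.19 to 0.03 for BAX, and in ES from -0.13 to 0.11 for BAX and -0.07 to 0.04 for BAK1. The interaction ran from -0.06 to 0.11 for BCL2, -0.05 to 0.19 for BAX and -0.01 to 0.11 for BAK1.

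Over all genes tested, samples of 1 replicate number did not deviate together (correlations from -0.18 to 0.18 over the 6 pairs of groups), so the numbers were not taken as pairs. For BAX and BAK1, however, replicate 1 was above replicate 2 in every group. As a lone remaining library has no spread of its own, it was assumed to vary like the other groups. Low read numbers limit what can be said of BBC3 (31 to 140 reads).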
